A study of Saccharomyces cerevisiae with 4 samples.

Results

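The genes described here make and break down polyphosphate in Saccharomyces cerevisiae. They were chosen by name, with earlier results of these data known. The set holds the subunit genes of the vacuolar polyphosphate polymerase VTC1, VTC2, VTC3, VTC4 and VTC5, and the polyphosphatase genes PPN1, PPX1 and DDP1. It also holds PHM6, a gene of unknown function named, like the older PHM names of the polymerase genes, for phosphate metabolism. Of these 9 genes, 8 had a probe that the array annotation names, and VTC5 had no named probe and was not analysed here. The arrays carried 6388 gene probes, of which 5326 have a symbol in that annotation and 1062 do not.

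Polyphosphate is a linear chain of phosphate residues that yeast stores in its vacuole as a phosphate reserve. The VTC complex spans the vacuolar membrane, builds the chain from ATP on the cytosolic side and passes it into the vacuole. Its catalytic subunit is Vtc4, Vtc1 is a small membrane subunit, Vtc2 and Vtc3 are alternative subunits, and Vtc5 increases the activity of the complex. The SPX domains of the larger subunits bind inositol pyrophosphates, which report how much phosphate the cell has. Ppn1 cuts the stored chain in the vacuole, Ppx1 removes residues from chain ends, and Ddp1 hydrolyses polyphosphate and the pyrophosphate bonds of inositol pyrophosphates and dinucleoside polyphosphates. Several of these genes belong to the phosphate regulon, the set of genes that the transcription factor Pho4 activates when phosphate is short.

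The samples were wild-type cells of BY4742, a common haploid laboratory strain with mating type alpha, and both groups carried YCpLac111, a single-copy centromeric plasmid with the LEU2 marker. The low phosphate group was grown with 75 uM phosphate and the standard phosphate group with 10 mM, in synthetic complete medium with glucose, and each group had 2 arrays, named a and b. The titles also carry a number, 1 on both low phosphate arrays and 2 on both standard phosphate arrays. They do not state its meaning, and it cannot be told apart from the phosphate level. Each array compared the sample with a common reference, 1 RNA pool of wild-type BY4742 for which the labels name neither a plasmid nor a phosphate treatment. The sample was labelled with Cy3 and the reference with Cy5 on the a arrays, and the dyes were exchanged on the b arrays. The submitters describe the arrays of a group as independent cultures, while the study's methods speak of biological replicates, each hybridized again after a dye swap. The p-values therefore measure the spread between arrays, which may be technical, and culture and dye orientation cannot be told apart within a group. RNA came from whole cultures, so fewer expressing cells and less RNA per cell cannot be told apart either.

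Across all gene spots, the median signal of the sample channel was 310 and 322 in low phosphate and 383 and 254 in standard phosphate, over backgrounds of 41 to 49. The reference channel was less even, at 254 and 243 on the low phosphate arrays and 703 and 131 on the standard phosphate arrays. Log2 ratios spread more widely over the probes on low phosphate b (SD 0.599) than on the other 3 arrays (SD 0.197 to 0.270), so low phosphate b stood apart from the rest. The alpha-specific genes MF(ALPHA)1, MF(ALPHA)2, STE3 and SAG1 gave signals of 35.2 to 391 times background in the samples, whereas the 6 genes specific to mating type a gave 1.17 to 3.27 times background. MF(ALPHA)2 (-1.28, SE 0.39) and SAG1 (-0.81, SE 0.20) were over 1.7-fold lower in low phosphate with an unadjusted p under 0.05 (limma), but not without low phosphate b or either standard phosphate array, and 0 of the 6 a-specific genes passed in either direction. LEU2 was above the reference on all 4 arrays, by 0.57 and 1.09 on the log2 scale in low phosphate and by 2.61 and 1.48 in standard phosphate.

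The comparison asked how the transcripts of these genes respond when phosphate is limited. Transcripts of the 4 measured polymerase subunits and of PHM6 were higher in low phosphate, by 2.07-fold for VTC2, 3.42-fold for VTC4, 4.12-fold for VTC3, 4.99-fold for VTC1 and 6.70-fold for PHM6. Of the polyphosphatase genes, PPN1 was at 1.27-fold and PPX1 at 0.902-fold of its standard phosphate level, both with a 95% interval that included no difference. DDP1 gave no signal above background. Thus 5 of 8 measured genes exceeded 1.7-fold in the higher direction at an unadjusted p under 0.05, the thresholds of fold and p that the study uses, against 1.6% of all probes. None of the 8 was lower by the same rule, which 1.47% of all probes met. After Benjamini-Hochberg adjustment over all probes (limma), 0 of the 8 and 0.0157% of all probes passed 0.05. An unadjusted p under 0.05 was reached by 5 of the 8 and by 733 of all 6388 probes (limma). The median log2 difference of the 8 genes was 1.41, against 0.0001 over all probes.

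The hybridization signals behind these ratios ranged from far above background to background. Each probe was spotted 2 times per array, and 56 of the 64 member spots exceeded the local background by 3 SDs of that background, in the sample channel and in the reference channel alike. The other 8 spots in each channel were those of DDP1. PHM6 passed this limit on every array but was dim on standard phosphate b, at 3.07 times background in the sample and 1.65 times in the reference. No member spot was near saturation, and both spots of a probe differed by at most 0.093 on the log2 scale over the 32 pairs of spots. The low phosphate arrays differed by 0.25 to 1.28 for VTC1 to VTC4 and PHM6, more than any pair of spots did.

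**Figure D1:**
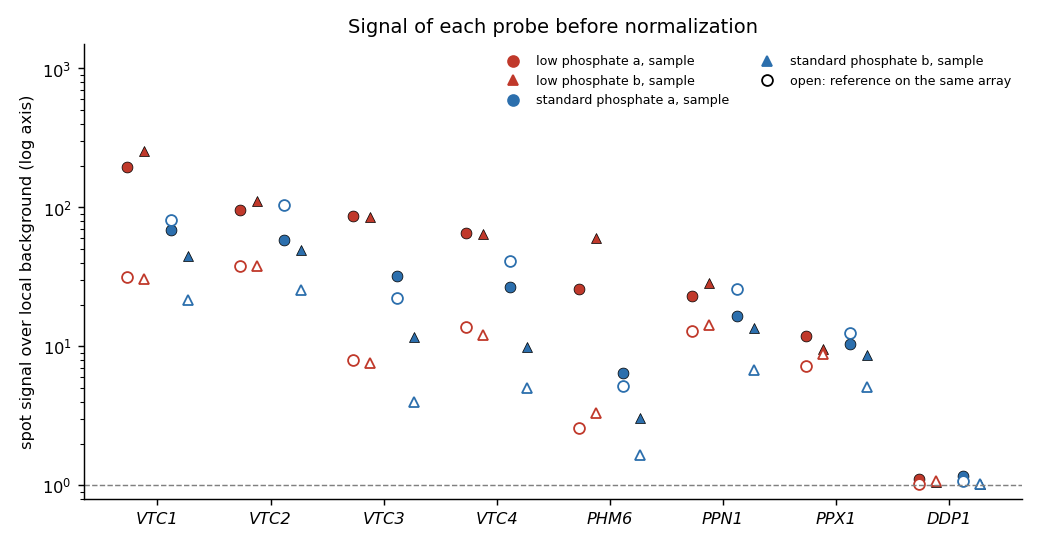
Spot signal divided by local background for each probe (log axis, 2 spots averaged), with filled symbols for the sample and open symbols for the reference on the same array, red for low phosphate and blue for standard phosphate, circles for a and triangles for b. DDP1 lies at the dashed line of background in every channel, and PHM6 has a dim reference signal, at 1.65 to 5.18 times background.

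VTC4, the catalytic subunit of the polymerase, showed log2 ratios over the reference of 1.81 and 2.20 in low phosphate and 0.24 and 0.23 in standard phosphate. Both low phosphate arrays lay far above both standard phosphate arrays, and the standard phosphate arrays almost coincided. The difference was 1.77 (SE 0.16, 95% interval 1.33 to 2.22), or 3.42-fold (2.51 to 4.66), with an unadjusted p of 0.00039 and an adjusted p of 0.219 (limma). Before normalization, the sample gave raw signals of 2761 and 3192 and the reference 667 and 528 on the low phosphate arrays. On the standard phosphate arrays the sample gave 1415 and 489 and the reference 2457 and 210, and on the a array the reference channel also had the higher median over all gene spots.

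VTC1, the small membrane subunit that all forms of the complex share, had the largest difference of the 4 subunits. Its log2 ratios were 2.30 and 3.22 in low phosphate and 0.48 and 0.41 in standard phosphate. The groups did not overlap, but the low phosphate arrays were 0.93 apart, a larger distance than for 94.3% of all probes. The difference was 2.32 (SE 0.34, 95% interval 1.37 to 3.27), or 4.99-fold (2.59 to 9.62), with an unadjusted p of 0.00248 and an adjusted p of 0.397 (limma). Its sample signal was 8233 and 12844 in low phosphate, over reference signals of 1531 and 1241 on the same arrays.

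The alternative subunits VTC2 and VTC3 differed in their size of response. VTC3 had log2 ratios of 2.99 and 3.24 in low phosphate and 1.29 and 0.85 in standard phosphate. In standard phosphate it was the subunit gene with the highest ratio, 2.10-fold of the reference, and ranked 11 and 24 among all probes. Its difference was 2.04 (SE 0.20, 95% interval 1.49 to 2.59), or 4.12-fold (2.82 to 6.03), with an unadjusted p of 0.000505 and an adjusted p of 0.219 (limma). VTC2 had log2 ratios of 1.01 and 1.44 in low phosphate and 0.09 and 0.27 in standard phosphate. The groups were separate here as well, with the smallest gap between them of the 4 subunits, at 0.75. Its difference was 1.05 (SE 0.18, 95% interval 0.54 to 1.56), or 2.07-fold (1.45 to 2.95), with an unadjusted p of 0.00476 and an adjusted p of 0.42 (limma). The intervals of VTC2 and VTC3 overlapped between 1.49 and 1.56. Within both dye orientations the difference of VTC2 was the smaller one, with a value of VTC2 minus VTC3 of -0.78 on the a arrays and -1.21 on the b arrays.

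PHM6, whose product has no known function, gave the largest difference among the 8 genes. Its log2 ratios were 2.70 and 3.99 in low phosphate and 0.72 and 0.48 in standard phosphate. The groups were well apart, and the low phosphate arrays differed from each other by 1.28, a larger distance than for 98.1% of all probes. The difference was 2.74 (SE 0.47, 95% interval 1.43 to 4.05), or 6.70-fold (2.70 to 16.6), with an unadjusted p of 0.00438 and an adjusted p of 0.42 (limma). It ranked 5 among all 6388 probes. Its reference signal was only 126 and 131 on the low phosphate arrays and 288 and 60.3 on the standard phosphate arrays, so background correction weighs more on its ratio than on those of the polymerase subunits.

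Among the polyphosphatases, PPN1, the vacuolar enzyme, had log2 ratios of 0.37 and 0.76 in low phosphate and 0.15 and 0.29 in standard phosphate. Both low phosphate arrays were above both standard phosphate arrays, but the gap was only 0.08. The difference of 0.34 (SE 0.17, 95% interval -0.13 to 0.81) did not pass the test, with an unadjusted p of 0.113 and an adjusted p of 0.424 (limma). PPX1, the exopolyphosphatase, had log2 ratios of 0.12 and -0.02 in low phosphate and 0.19 and 0.21 in standard phosphate. Its low phosphate arrays were the lower ones without overlap, as for 1713 of all 6388 probes, and all 4 values lay close to the reference. The difference was -0.15 (SE 0.10, 95% interval -0.43 to 0.13), with an unadjusted p of 0.212 and an adjusted p of 0.50 (limma). The upper bound of PPX1 lay below the lower bound of VTC2, and the upper bound of PPN1 below the lower bounds of VTC1, VTC3, VTC4 and PHM6. DDP1 was not well above background on any array, with sample signals of 1.11 and 1.06 times background in low phosphate and 1.17 and 1.02 times in standard phosphate. No fold is given for it, and its transcript level was not measurable with this probe.

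**Figure D2:**
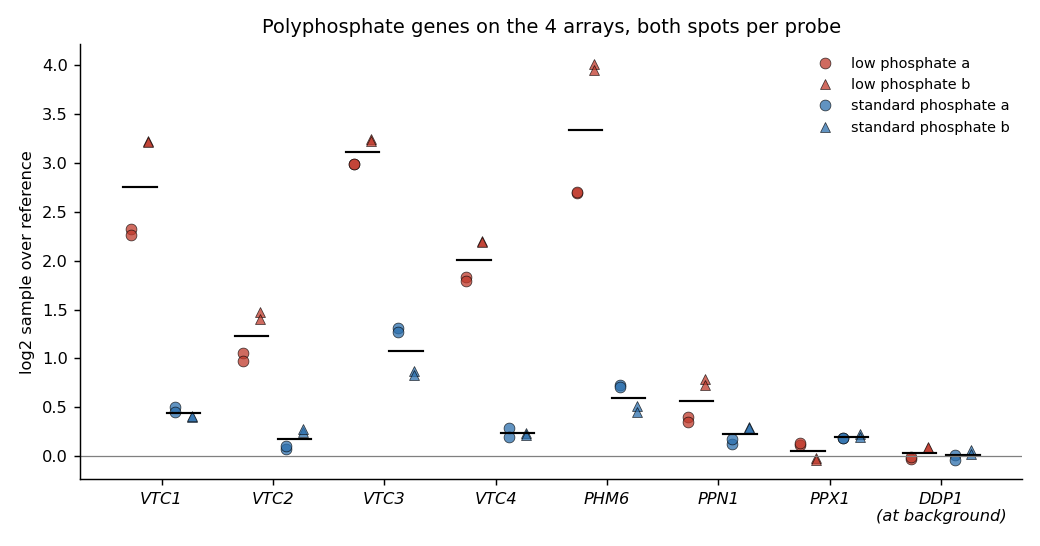
Log2 ratio of sample over reference for each of the 8 measured genes, with every spot shown (red for low phosphate, blue for standard phosphate, circles for a, triangles for b) and a bar at each group mean. VTC1 to VTC4 and PHM6 have both low phosphate arrays clearly above both standard phosphate arrays, whereas the array means of PPN1 and PPX1 lie within 0.76 of the reference and DDP1 is at background.

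In 6 of the 8 genes both low phosphate arrays were above both standard phosphate arrays, against 26.5% of all probes. These were VTC1, VTC2, VTC3, VTC4, PPN1 and PHM6. In low phosphate the subunit genes were also above the common reference, by 8.67-fold for VTC3, 6.77-fold for VTC1, 4.02-fold for VTC4 and 2.34-fold for VTC2. VTC3 and VTC4 passed an adjusted p of 0.05 against the reference (limma, 0.0195 and 0.0299), so 2 of 8 genes did where 0.157% of all probes were higher by that rule. VTC1, PHM6 and VTC2 had adjusted p of 0.0806, 0.0983 and 0.104. In standard phosphate 0 of the 8 genes differed from the reference at that threshold (limma), against 0.0783% of all probes, and VTC3 and PPX1 had unadjusted p of 0.00157 and 0.0489. The count of 2 depended on the processing (limma): it was 0 with trend and robust weights (adjusted p 0.201 for VTC3 and VTC4), with the replicate block (0.159 for both) or without either standard phosphate array (0.36 and 0.408), and 1, VTC3, with print-tip loess or spike-in loess. It was 3 with dim probes left out (VTC1 added), 4 with normexp offset 0 or median centring (VTC1 and PHM6 added) and 5 with scale between arrays (VTC1, VTC2 and PHM6 added). It also rose without either low phosphate array, where the spread rests on the standard phosphate pair, and so did the count of 0 in standard phosphate. For these other settings the share of all probes that passed against the reference is not given. The reference was a single RNA pool, so these comparisons leave out its own spread.

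Because dye orientation and replicate letter coincide, the comparison was repeated within each orientation. On the a arrays low phosphate over standard phosphate was 3.95-fold for PHM6, 3.53-fold for VTC1, 3.25-fold for VTC3, 2.98-fold for VTC4 and 1.90-fold for VTC2. On the b arrays the same ratio was 11.4-fold for PHM6, 7.05-fold for VTC1, 5.22-fold for VTC3, 3.92-fold for VTC4 and 2.26-fold for VTC2. The order of the 5 genes was the same in both orientations, and each of the 5 ratios was larger on the b arrays. Ratios of all probes also spread more widely on low phosphate b. Among all probes, VTC1 ranked 8 on the a arrays and 19 on the b arrays. The ranks on a and b were 53 and 201 for VTC2, 9 and 31 for VTC3, 13 and 63 for VTC4, and 6 and 3 for PHM6. The 95% intervals of all 5 genes overlapped, and the differences between these genes were not tested. On the log2 scale the differences of PPN1 were 0.22 and 0.47 and those of PPX1 were -0.06 and -0.24.

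**Figure D3:**
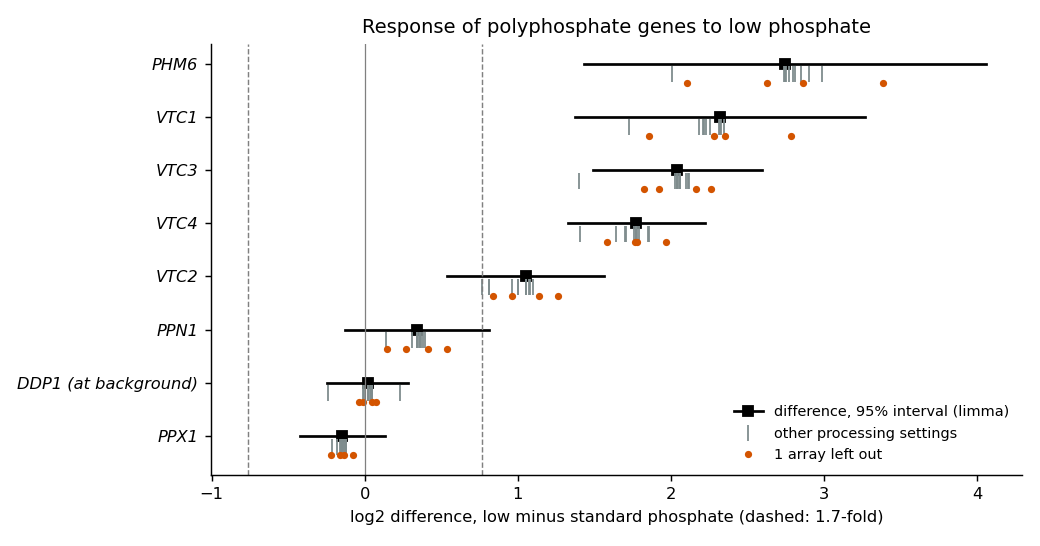
Log2 difference, low minus standard phosphate, of each gene (square) with its 95% interval from limma, under other processing settings (grey ticks) and with 1 array left out (orange points); the dashed lines mark 1.7-fold. VTC1, VTC3, VTC4 and PHM6 stay above 1.7-fold in all settings, VTC2 drops to 0.76 in the lowest setting, and no plotted difference of PPN1 or PPX1 reaches the lines.

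The 5 genes kept a difference of over 1.7-fold with an unadjusted p under 0.05 with any 1 array left out. Their differences then ranged over 1.85 to 2.78 for VTC1, 0.84 to 1.26 for VTC2, 1.82 to 2.26 for VTC3, 1.58 to 1.97 for VTC4 and 2.10 to 3.39 for PHM6. The adjusted p depended on which array was left out. Without a low phosphate array the spread rests on the standard phosphate pair, and all 5 passed the adjusted threshold (limma): the highest of their adjusted p was 0.000371 without low phosphate a and 0.0339 without low phosphate b. Without low phosphate a, PPN1 passed as well, with a difference of 0.54 and an adjusted p of 0.0159. In those fits 2030 and 96 probes passed in all. Without a standard phosphate array the adjusted p of the 5 genes was 0.919 (without a) or 0.766 (without b), since the spread then rests on the low phosphate pair. With the arrays scaled to 1 common spread, 3 of the 8 genes passed the rule of fold and unadjusted p (VTC1, VTC4 and PHM6), and with a variance model with trend and robust weights 2 did (VTC2 and PHM6), where the unadjusted p of VTC1, VTC3 and VTC4 was 0.0553, 0.0988 and 0.0559.

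A stress pattern differed between the low phosphate arrays, in the same direction as VTC1, VTC2, VTC3, VTC4, PPN1 and PHM6. PPX1 went the other way (-0.15). Across 20 stress genes that the transcription factors Msn2 and Msn4 activate, the median log2 ratio was 0.99 and 2.81 on low phosphate a and b, against -0.16 and 0.39 on standard phosphate a and b. HSP12 read 0.95 on low phosphate a, below its 2.11 and 2.51 on standard phosphate a and b. On low phosphate b it read 4.16, and its difference was 0.25 (SE 1.15). The largest difference of the list was 3.66 (SE 0.68), for the small heat shock protein gene HSP26. Of the 20 stress genes, 8 passed the rule as higher (HSP26, HSP42, HSP104, TPS2, GSY1, GSY2, GLK1 and GPD1), against 1.6% of all probes. This count moved with any 1 array left out. It was 17 with the replicate block (169 of all probes), 15 with scale between arrays (115), 14 with normexp offset 0 (208) and 4 with trend and robust weights (74). Of 20 ribosome biogenesis genes, 5 passed as lower (RPF1, RCL1, FCF1, NSR1 and RRP5), against 1.47% of all probes. The list median was -0.21 and -1.40 on low phosphate a and b, against 0.21 and 0.06 on standard phosphate a and b. That count of 5 moved with any 1 array left out. It was 13 with spike-in loess (218 of all probes), 12 with the replicate block (165) and 8 with normexp offset 0 (171) or scale between arrays (135). It was 2 with print-tip loess (74), with no background subtraction and print-tip loess (83) or with the series table (80). The median step between low phosphate b and a was 1.72 for the stress list and 0.83 for 14 other phosphate regulon genes. The step was 1.28 for PHM6, 0.93 for VTC1, 0.43 for VTC2, 0.39 for PPN1, 0.38 for VTC4 and 0.25 for VTC3. Each of these 6 steps was smaller than the median stress step. The steps of single stress genes ranged from 0.52 to 3.21, so those of PHM6 and VTC1 lay within the stress range. The part of the stress pattern in the differences of the polyphosphate genes was not tested.

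**Figure D4:**
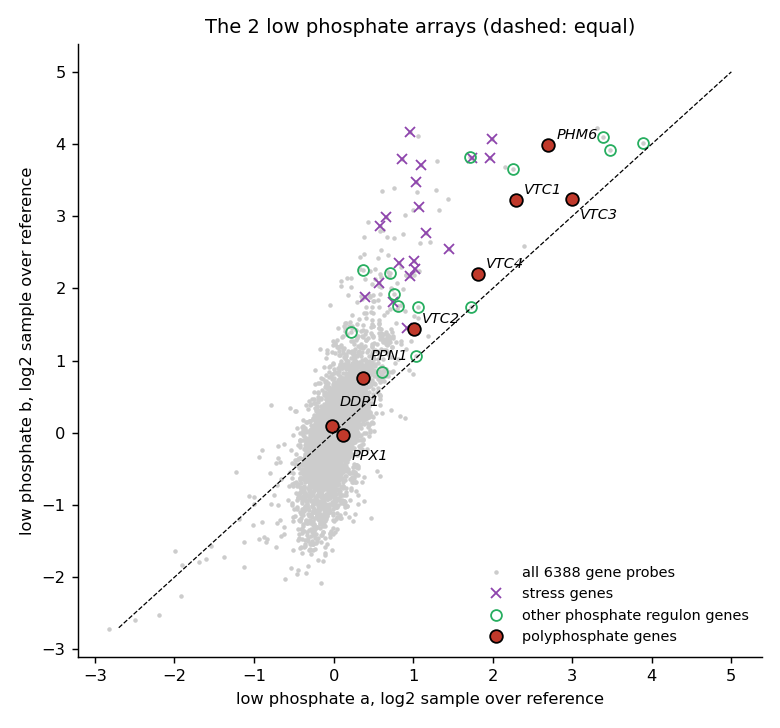
Log2 ratio of sample over reference on low phosphate a (horizontal) and low phosphate b (vertical) for all 6388 gene probes (grey), 20 stress genes (crosses), the other phosphate regulon genes (open circles) and the 8 polyphosphate genes (red), with equality dashed. Stress genes lie 0.52 to 3.21 above the dashed line. VTC1 and PHM6 lie 0.93 and 1.28 above it, and VTC2, VTC3 and VTC4 lie above it by at most 0.43.

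The other genes of the phosphate regulon were set beside the polyphosphate genes. Of 16 listed genes 14 had a named probe, all 14 had a higher mean in low phosphate, and 9 passed the rule as higher and 0 as lower, with a median difference of 1.34. With trend and robust weights 3 passed, and with 1 array left out 6 (without standard phosphate b) to 13 (without low phosphate a) did. The 9 were PHM8, a nucleotidase gene (2.85, SE 0.52), PHO12, an acid phosphatase gene (2.77, SE 0.30), SPL2, whose product restrains low-affinity phosphate uptake (2.75, SE 0.23), the phosphate transporter genes PHO89 (2.31, SE 0.76) and PHO84 (1.46, SE 0.18), PHO81, the inhibitor of the cyclin-dependent kinase Pho85 (1.35, SE 0.10), PHO8, the vacuolar alkaline phosphatase gene (1.30, SE 0.26), GDE1 (1.14, SE 0.35) and PHO86 (0.91, SE 0.09). The differences of VTC1, VTC3, VTC4 and PHM6 fell within this range, and that of VTC2 lay between those of PHO86 and GDE1. PHO5 and PHO11 had no named probe.

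The signal that the SPX domains read is made by a short chain of kinases. Of 6 genes of inositol pyrophosphate metabolism, 1 passed as higher and 0 as lower, with a median difference of 0.25. The 1 was VIP1, an inositol pyrophosphate synthase gene, with log2 ratios of 0.95 and 0.87 in low phosphate and 0.06 and -0.13 in standard phosphate. Its difference was 0.94 (SE 0.11, unadjusted p 0.00109, adjusted p 0.279, limma), with close agreement between the low phosphate arrays. The next largest was PLC1, the phospholipase C gene that supplies inositol phosphates (0.60, SE 0.19), while KCS1, the other pyrophosphate synthase gene, measured 0.35 (SE 0.17).

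Phosphate reaches the polymerase through the transporters of the plasma membrane and returns from the vacuole through Pho91. Of 8 transport genes 3 passed as higher, PHO84, PHO89 and PHO86, and 0 as lower. The count as higher was 4 with normexp offset 0 and 1 with trend and robust weights. It was 2 with scale between arrays, dim probes left out or the replicate block. The counts as higher and as lower also moved with some arrays left out. PHO91 had log2 ratios of 0.40 and 0.26 in low phosphate and -0.11 and -0.08 in standard phosphate, a difference of 0.42 (SE 0.10) that stayed under 1.7-fold. The low-affinity transporter genes PHO87 and PHO90 measured -0.48 (SE 0.14) and -0.58 (SE 0.22). The proton gradient that drives synthesis comes from the vacuolar ATPase, and of its 19 measured subunit and assembly genes 0 passed in either direction, with a median difference of -0.03. The largest of these differences were 0.31 (SE 0.18) for VMA1 and -0.28 (SE 0.25) for PKR1, and 0 of the 19 had an unadjusted p under 0.05.

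Of the other genes for cleaving phosphate chains, the cytosolic pyrophosphatase gene IPP1 measured 0.39 (SE 0.17) and the mitochondrial one PPA2 0.09 (SE 0.11), neither past the rule, and the polyphosphatase gene PPN2 had no named probe. Of 5 phosphate signalling genes, 1 passed as higher, PHO81, with log2 ratios of 1.73 and 1.74 in low phosphate and 0.46 and 0.32 in standard phosphate. With trend and robust weights PHO81 missed the rule, at an unadjusted p of 0.0986. PHO85 measured 0.36 (SE 0.18) and PHO4 -0.32 (SE 0.10). Among 6 other genes with an SPX domain, PHO81 and GDE1 passed as higher and 0 as lower, and the median difference was 0.03, against differences of 1.05 to 2.04 for the SPX subunit genes VTC2, VTC3 and VTC4. The count of 2 was 0 with trend and robust weights, and the counts as higher and as lower moved with some arrays left out. Some genes stand in several of these lists: PHO81 in 3, and PHO84, PHO89, PHO86, GIT1, GDE1, PHO87, PHO90 and PHO91 in 2 each.

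Across the 4 arrays, the 6 named genes whose log2 ratios lay closest to the mean profile of VTC1 to VTC4 were found by Euclidean distance. That mean profile was 2.03 and 2.53 in low phosphate and 0.52 and 0.44 in standard phosphate. The closest was the glycogen synthase gene GSY1 (distance 0.701), followed by PHO81 (0.850), YMR196W (1.01), STF2 (1.10), PHO3 (1.17) and GLK1 (1.17). GSY1 and GLK1 are on the stress list and PHO81 on the regulon list. VTC4 and VTC1 were 0.529 and 0.749 from the mean that they are part of, and VTC3 and VTC2 were 1.48 and 1.56 from it, farther than all 6 of these genes. The annotation gives the name PHO3 to 2 probes. The other one read 0.47 and -1.19 in low phosphate and 0.47 and 0.18 in standard phosphate. The 2 probes thus disagreed, and whether both measure PHO3 was not tested.

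Each of the 8 genes has a neighbour on either side of it on its chromosome. Of these 16 adjacent genes 14 were measured, 0 passed as higher, and their median difference was 0.10. The 1 that passed as lower was ALD5, an aldehyde dehydrogenase gene beside VTC1, with a difference of -1.45 (SE 0.15). The largest positive difference was 1.30 (SE 0.84, unadjusted p 0.194, limma), for TSA2 beside PPN1. CTF19, also on the regulon list, shares its upstream region with VTC3 and is transcribed away from it. It measured 0.63 (SE 0.13, unadjusted p 0.00747, limma), below 1.7-fold. TDA2, in the same arrangement beside VTC1, measured 0.14 (SE 0.11).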

How the data were processed

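Expression was measured on 4 two-channel oligonucleotide arrays, 2 with low and 2 with standard phosphate. The deposited scanner files, which the authors extracted with Imagene, hold the raw mean intensity and background intensity of 15552 spots per array, 12776 of them gene spots. A series table, also deposited, has a log2 ratio for each spot, made by the authors with print-tip loess (span 0.4) without background subtraction and a correction for gene-specific dye bias. Its direction was found against the scanner values, with correlations to log2 Cy5 over Cy3 of -0.91 and 0.94 in low phosphate and -0.65 and 0.68 in standard phosphate, and column medians of -0.012, -0.0063, -0.0072 and -0.0059. It ran as sample over reference and served as an alternative. A deposited final table with the authors' mean M and p-values per condition, computed with limma 2.12.0 per their processing notes, was not used. Groups and dyes came from the labels.

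In R 4.3.3 with limma 3.58.1, background was corrected by normexp (offset 50) and each array normalized by loess (span 0.3) on the gene spots. The ratios of the a arrays were turned, and both spots of a probe averaged. One limma model with group means (lmFit, eBayes; 2 residual and 1.98 prior degrees of freedom) was fitted to all 6388 probes, two-sided, with Benjamini-Hochberg adjustment. Only its mean estimates of the difference were checked on simulated data, with the same spread on every array. Its p-values under the unequal spread of these arrays were not tested. A probe passed the rule at over 1.7-fold with an unadjusted p under 0.05. The members and the gene lists were chosen with earlier results of these data known. All members were named, and of each list the genes past the rule or, where fewer than 2 passed, the 2 with the largest difference, and a few others of known role were added after their values were seen. Probes were named from the platform annotation and RefSeq synonyms (R64), which also gave the adjacent genes. The number of arrays limits the precision. Gene positions of that assembly served only for the order, strand and overlap of neighbouring genes, and sequences were not used here. Other background corrections, normalizations, filters, variance models, single spots, a replicate block and leaving out each array were tried.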

Additional observations from a re-analysis of the deposited data

How the results depend on the processing

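VTC1, VTC2, VTC3, VTC4 and PHM6 were higher in low phosphate under all 12 other settings and with any 1 array left out. The count of genes past 1.7-fold and an unadjusted p under 0.05 was 5, 3 with scale between arrays and 2 with trend and robust weights (limma), and 5 under the others. VTC2 measured 0.76 with scale between arrays, and VTC3 an unadjusted p of 0.0518. Of all probes 196 passed that rule, against 379 with normexp offset 0, 298 with loess on spike-in spots and 334 with the replicate block, and 64 to 936 with 1 array left out (936 without low phosphate a, 64 and 73 without standard phosphate a and b, 101 without low phosphate b). The share of these that were higher was 52.0%, against 26.8% with spike-in loess, 62.7% with median centring and 40.2% with trend and robust weights. An adjusted p under 0.05 was reached by 1 probe, by 3 with scale between arrays, by 0 with offset 0, both print-tip settings, median centring, spike-in loess, the series table and the replicate block, and by 0 to 2030 with 1 array left out. In the paired fit with the replicate block the same 5 genes passed the rule, with an adjusted p of 0.323 for each. The letters share only a dye orientation, and the b minus a differences of both groups correlated with r = 0.277 over all probes. VTC4 over the reference missed the adjusted threshold with print-tip loess (0.054) and spike-in loess (0.0502).

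PPX1 over the reference in low phosphate was -0.025 to 0.12 with 1 array left out. DDP1, at background, had no stable sign: its difference was -0.24 with median centring, -0.0136 with scale between arrays and -0.0084 with the first spot only, and -0.0371 to 0.0755 with 1 array left out. Its low phosphate ratio over the reference was -0.21 with median centring and -0.0214 to 0.0911 with 1 array left out, and its standard phosphate ratio -0.0065 with spike-in loess, -0.0053 with the second spot only and -0.0125 to 0.0438 with 1 array left out. DDP1 had no value with dim probes left out. The causes were not tested.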
